A study of Arabidopsis thaliana with 4 samples.

Results

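Levels of 10 genes for arabinogalactan and fasciclin-like proteins of the Arabidopsis thaliana cell wall were measured in callus that formed from hypocotyls. They are AGP4 (AT5G10430), AGP7 (AT5G65390), AGP12 (AT3G13520), AGP15 (AT5G11740), AGP18 (AT4G37450), FLA1 (AT5G55730), FLA2 (AT4G12730), FLA7 (AT2G04780), FLA8 (AT2G45470) and FLA15 (AT3G52370), taken by locus code, and all 10 have a row among the 23922 loci of the count table. RNA-seq libraries came from callus labelled plt1 plt2 (double mutant, 2 libraries) and from callus labelled wild type (accession Col-0, 2 libraries). PLT1 and PLT2 (PLETHORA) are transcription factors of the AP2 class best known from the root meristem, and the mutant alleles are not given in the sources used here. Both groups were treated alike: seedlings grew for 9 days in darkness, then hypocotyl pieces of about 1 cm stayed in continuous light at 22 °C on callus induction medium with 11 µM of the auxin 2,4-D, 0.2 µM kinetin and 2% sucrose. The protocol gives 5 to 6 days on this medium, the stage label gives 6, and each RNA sample pooled about 100 calli. The labels do not tell whether the 2 libraries of a label stem from different cultures, and the spread that p-values rest on may therefore be technical.

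Arabinogalactan proteins (AGPs) are secreted glycoproteins whose prolines are hydroxylated and then carry large branched chains of galactose and arabinose. Most are tethered to the outer face of the plasma membrane by a glycosylphosphatidylinositol (GPI) anchor that can be cleaved, which frees the protein into the wall. Classical AGPs consist mostly of a proline-rich stretch, lysine-rich AGPs have a short basic stretch inside it, and AG peptides are reduced to a core of a few residues after processing. Fasciclin-like AGPs (FLAs) combine AGP stretches with fasciclin domains, which are known for adhesion in animals, and are sorted by domain layout into groups A to D. The plant hormones auxin and cytokinin drive callus growth, which builds new wall.

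The proline codons of these genes are shown first, in capitals, because AGP stretches are built around proline and the choice by locus code did not use them. Their share differs widely between the genes, as given below. All sequences are from the RefSeq TAIR10.1 genome and run 5′ to 3′ along the coding strand. The whole coding sequences of the AG peptide genes are AGP12 at chr3:4409087-4409269 (plus strand, 60 codons) and AGP15 at chr5:3784318-3784503 (plus strand, 61 codons).
AGP12: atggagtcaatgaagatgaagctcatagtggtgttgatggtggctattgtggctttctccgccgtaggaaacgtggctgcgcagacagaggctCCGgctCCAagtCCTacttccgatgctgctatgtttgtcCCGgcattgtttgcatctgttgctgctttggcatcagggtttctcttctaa
AGP15: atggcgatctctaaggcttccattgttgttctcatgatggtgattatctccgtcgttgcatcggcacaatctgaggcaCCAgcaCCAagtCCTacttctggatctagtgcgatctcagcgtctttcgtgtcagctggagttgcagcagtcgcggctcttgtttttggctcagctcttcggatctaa
AGP12 holds 4 proline codons and AGP15 holds 3. In both, 3 proline codons stand at every other codon, with alanine or serine codons between them. The whole coding sequences, this stretch included, were 56.7% identical over 203 alignment columns.

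For longer genes, the 20 codons with the most proline codons are given for AGP7 (codons 34 to 53, chr5:26129117-26129176, minus strand), AGP18 (142 to 161, chr4:17606459-17606518, minus), FLA7 (23 to 42, chr2:1677554-1677613, plus), FLA8 (350 to 369, chr2:18742953-18743012, minus) and FLA15 (258 to 277, chr3:19418161-19418220, plus). They are the genes whose levels are described at most length below, with FLA8 as the most abundant FLA.
AGP7: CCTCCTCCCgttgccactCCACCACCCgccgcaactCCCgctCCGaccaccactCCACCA
AGP18: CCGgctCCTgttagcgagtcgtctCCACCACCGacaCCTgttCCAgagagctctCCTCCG
FLA7: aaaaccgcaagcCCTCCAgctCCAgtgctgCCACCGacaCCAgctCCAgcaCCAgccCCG
FLA8: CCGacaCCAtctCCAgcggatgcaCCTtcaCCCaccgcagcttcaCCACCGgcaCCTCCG
FLA15: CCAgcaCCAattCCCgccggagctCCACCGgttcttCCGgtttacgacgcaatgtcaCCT
These windows hold 10, 9, 9, 9 and 7 proline codons in that order. The same window of AGP4 holds 12, that of FLA1 holds 5 and that of FLA2 holds 4. Over the whole coding sequence, and not always inside the printed windows, the longest run with proline at every other codon has 5 prolines in FLA7 and FLA8 and 4 in AGP18, FLA1 and FLA15.

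Codons for proline, alanine, serine and threonine, the residues typical of AGPs, made up 72.6% of the codons of AGP4 and 66.9% of those of AGP7, against a median of 24.9% over 27363 nuclear coding genes. The share was 53.6% in AGP18, 50.8% in AGP15 and 43.3% in AGP12. Among the FLAs it ran from 28.6% in FLA15 to 43.1% in FLA8. FLA2, with 3.97% proline codons, was the only 1 of the 10 below the median of all genes (4.56%). Lysine codons made up 5.76% of AGP18, below the 6.27% median of all genes but above the 1.48% to 3.33% of AGP4, AGP7, AGP12 and AGP15.

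**Figure D1:**
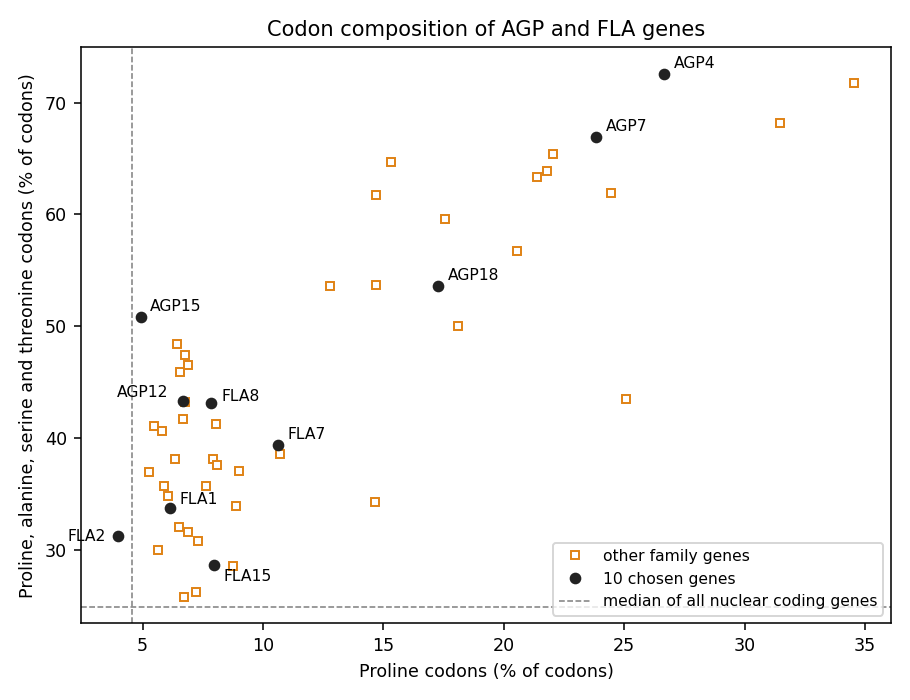
Percentage of proline codons (x) against the percentage of proline, alanine, serine and threonine codons (y), with 1 point per gene; black circles are the 10 genes, open squares the 41 other listed AGP and FLA genes, and dashed lines the medians of all nuclear coding genes (4.56% and 24.9%). AGP4 and AGP7 lie at the upper right, and the FLAs lie nearer the medians.

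The 10 genes lie on chromosomes 2, 3, 4 and 5 of TAIR10.1, and the coding sequence is in 1 exon except for AGP18, FLA1 and FLA15, which have 2. Of the 10, AGP4 alone overlaps exons of another gene, AT5G10435 on the other strand, over 405 exon bases. Since strand use in counting is not given in the sources used here, the few AGP4 reads cannot be assigned to it with certainty. None of the exon bases of the 10 genes matched elsewhere in the genome at 95% identity or more over 50 or more bases, so reads shared with close copies were not found to be a limit.

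The libraries labelled plt1 plt2 held 63209401 and 53907649 reads, and those labelled wild type 59049542 and 57254672. PLT1 had 122 and 128 CPM (counts per 1e6 reads after TMM scaling) in the libraries labelled plt1 plt2, against 171 and 166 CPM in those labelled wild type. PLT2 had 182 and 179 CPM in the libraries labelled plt1 plt2, against 63.1 and 62.1 CPM in those labelled wild type, so the label names as disrupted a gene whose reads were 2.88-fold higher there. Gene counts cannot show whether a transcript is intact, and every direction below rests on the labels. All 6 callus markers (LBD16, LBD17, LBD18, LBD29, WOX5, SCR) had reads in every library. Their sums were 720 and 663 CPM in the libraries labelled plt1 plt2 and 689 and 682 CPM in those labelled wild type. By edgeR, 4 of them rose and SCR fell, where 4.63% of all tested genes rose and 5.86% fell. The marker list was drawn up with earlier results of these data known, so these counts are descriptions.

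The 10 genes were chosen by locus code with read counts and fold changes of this same contrast in view. Their levels and changes are therefore descriptions with no test. The SE of a log2 fold change comes from the F value of the edgeR fit, in which each gene's spread is drawn toward that of all genes. It is therefore not that gene's own spread alone, and it is given as a description. A positive log2 fold change stands for a higher level under the plt1 plt2 label. Of the 10, 9 passed the filter on low counts, and AGP4 did not. In CPM, 8 of the 9 had both libraries of a label on the same side of the other label's, 7 of them lower and FLA1 higher in the libraries labelled plt1 plt2; over all 19325 tested genes such separation held for 54.7%, with 27.7% lower and 27% higher. In the edgeR fit 4 of the 9 were below an adjusted p of 0.05 on the lower side (AGP7, AGP18, FLA7, FLA15) and 0 on the higher side; over all genes 10.5% were called, 5.86% lower and 4.63% higher. At an unadjusted p below 0.05 the counts were 5 lower and 0 higher, and DESeq2 called the same numbers, 4 and 0. Because of how the genes were chosen, nothing is read from these counts.

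AGP7 (chr5:26128581-26129547, minus strand), a classical AGP, showed the largest difference of the 9. It had 3.03 and 2.62 CPM in the libraries labelled plt1 plt2, against 5.34 and 4.87 CPM in those labelled wild type. Both libraries labelled plt1 plt2 lay below both labelled wild type, and the mean was 1.81-fold lower (log2 fold change -0.85 ± 0.14, SE). The counts behind these values were 192 and 143 reads, against 312 and 277.

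AGP4 (chr5:3277488-3278461, minus), also called JAGGER and known for its part in stopping the attraction of further pollen tubes to a fertilised ovule, was barely detected. It had 4 and 2 reads in the libraries labelled plt1 plt2 and 6 and 8 in those labelled wild type. The ratio of levels was 0.419, with an exact 95% interval of 0.132 to 1.16 that covers counting error only and includes equal levels. AGP4 and AGP7 were 68.1% identical in coding sequence over 420 alignment columns, and AGP7 stood at 7.04 TPM on average against 0.151 TPM for AGP4 (a level per exon length, computed here), so the pair differed far more in level than either did between labels.

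AGP18 (chr4:17605538-17607050, minus), a lysine-rich AGP known for its part in the selection of the functional megaspore, had 12.4 and 12.0 CPM in the libraries labelled plt1 plt2 and 18.2 and 16.6 CPM in those labelled wild type. The groups did not overlap, and the mean was 1.43-fold lower (log2 fold change -0.52 ± 0.08). Of the other lysine-rich genes, AGP17 was not analysed here. AGP19 had 31 and 24 reads in the libraries labelled plt1 plt2 and 40 and 29 in those labelled wild type. It was not called (log2 fold change -0.36 ± 0.35, edgeR adjusted p = 0.576). AGP19 overlaps AT1G68723 on the other strand over 514 exon bases, so its few reads cannot be assigned with certainty.

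The AG peptide genes had the highest levels of the 10 per exon length (TPM), while in CPM FLA8 lay above AGP15 in every library. AGP12 (chr3:4408925-4409734, plus) had 109 and 103 CPM in the libraries labelled plt1 plt2, against 127 and 114 CPM in those labelled wild type (log2 fold change -0.19 ± 0.06). AGP15 (chr5:3783930-3784963, plus) had 76.2 and 72.4 CPM in the libraries labelled plt1 plt2, against 79.3 and 77.2 CPM in those labelled wild type (-0.07 ± 0.05). The groups of AGP15 were close in CPM and overlapped in TPM, which scales each library by its own sum without TMM. They had 128 and 125 TPM in the libraries labelled plt1 plt2 and 131 and 127 TPM in those labelled wild type. Their separation thus depended on how the libraries were scaled.

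FLA7 (chr2:1676717-1678455, plus), a GPI-anchored protein of group A with a single fasciclin domain, had 19.7 and 18.9 CPM in the libraries labelled plt1 plt2, against 23.8 and 23.0 CPM in those labelled wild type. Libraries of a label lay close together and the groups did not overlap (log2 fold change -0.28 ± 0.06). The other tested group A genes, FLA9, FLA11 and FLA12, had values of -0.42, -0.54 and -0.63 and none was called (edgeR adjusted p = 0.0976, 0.590 and 0.427). FLA11 and FLA12, known from secondary walls of xylem, had only 8 to 24 reads per library. Of 7 tested xylem markers, 0 were called by edgeR or DESeq2 (1 lower and 0 higher at an unadjusted p below 0.05 by edgeR). All 7 had a log2 fold change below 0, with a median of -0.185. The xylem list summed to 22.6 and 19.0 CPM in the libraries labelled plt1 plt2 and 22.1 and 26.8 CPM in those labelled wild type.

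FLA1 (chr5:22558044-22560541, minus), FLA2 (chr4:7491227-7493080, minus) and FLA8 (chr2:18742477-18744322, minus) belong to group C and carry a pair of fasciclin domains. FLA1, whose mutants are described in the reference annotation as defective in shoot regeneration, was the only 1 of the 9 with a positive value. It had 73.9 and 72.1 CPM in the libraries labelled plt1 plt2, against 67.9 and 68.6 CPM in those labelled wild type (log2 fold change 0.10 ± 0.04). The groups were separate, with a mean 1.07-fold higher. FLA8 had 95.9 and 92.5 CPM in the libraries labelled plt1 plt2, against 102 and 98.0 CPM in those labelled wild type (-0.09 ± 0.05). Its groups were separate in CPM and overlapped in TPM.

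FLA2 was the only 1 of the 9 whose groups overlapped in CPM. It had 8.01 and 11.0 CPM in the libraries labelled plt1 plt2 and 10.9 and 10.8 CPM in those labelled wild type, a log2 fold change of -0.20 ± 0.13. The low value came from library 1 labelled plt1 plt2 alone: without that library the log2 fold change was 0.01, and without library 2 labelled plt1 plt2 it was -0.44.

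FLA15 (chr3:19417372-19419913, plus), of group B, which has a pair of fasciclin domains and is predicted to lack the anchor, had 2.26 and 2.66 CPM in the libraries labelled plt1 plt2, against 4.04 and 3.99 CPM in those labelled wild type. The groups did not overlap, and the mean was 1.64-fold lower (log2 fold change -0.71 ± 0.15). Its tested relatives of group B, FLA17 and FLA18, were more abundant and gave -0.04 ± 0.05 and -0.09 ± 0.06 (edgeR adjusted p = 0.717 and 0.446). FLA17 had 28.9 and 28.5 CPM in the libraries labelled plt1 plt2 and 29.5 and 29.4 CPM in those labelled wild type. FLA15 and FLA17 were 66.0% identical in coding sequence.

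**Figure D2:**
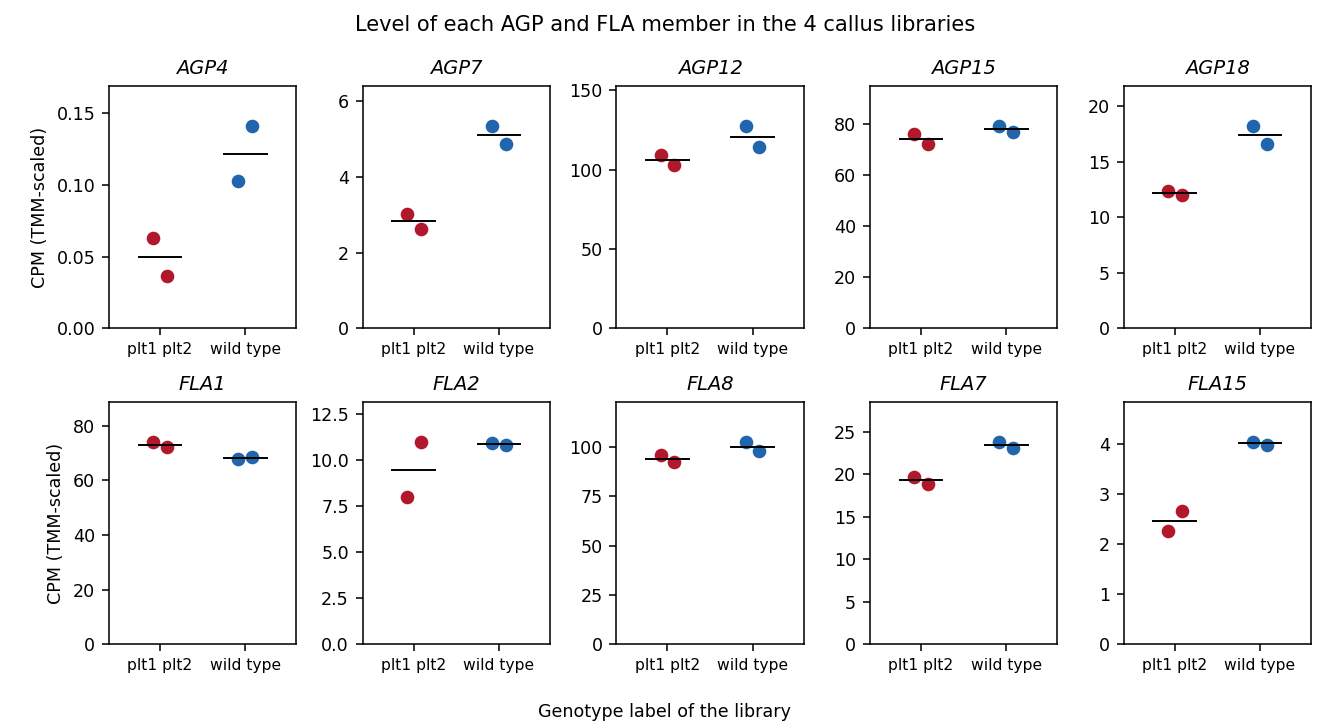
CPM of each of the 10 genes (y, from 0, own scale per gene) by the genotype label of the library (x), with 1 point per library and the mean as a line. Both points labelled plt1 plt2 lie below both labelled wild type for AGP4, AGP7, AGP12, AGP15, AGP18, FLA7, FLA8 and FLA15, above them for FLA1, and overlap them for FLA2.

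Per exon length, the order of the 10 genes over the 4 libraries ran from AGP12 at 241 TPM, AGP15 at 127, FLA8 at 90.9 and FLA1 at 69.6 through FLA7 at 21.2, AGP18 at 19.1, FLA2 at 9.49, AGP7 at 7.04 and FLA15 at 3.01 to AGP4 at 0.151 TPM. AGP12 stood above 97.4% of the loci in the table and FLA15 above 33.3%. The ranges over all libraries overlapped between FLA7 and AGP18 and between FLA2 and AGP7, and every other pair of neighbours was separate. Within each label, FLA2 lay above AGP7 in every library, with 7.49 and 10.5 against 5.43 and 4.82 TPM in the libraries labelled plt1 plt2 and 10.1 and 9.90 against 9.39 and 8.54 TPM in those labelled wild type. Together the 10 genes summed to 400.2 and 387 CPM in the libraries labelled plt1 plt2, against 439 and 417 CPM in those labelled wild type, and AGP12 alone made up 109 and 103 of the first pair and 127 and 114 of the second.

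AGP31, an atypical AGP noted in the reference annotation for vascular expression, dwarfed them all. It had 1304 and 1356 CPM in the libraries labelled plt1 plt2, against 1574 and 1575 CPM in those labelled wild type. That is more than the 10 genes together in each library.

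**Figure D3:**
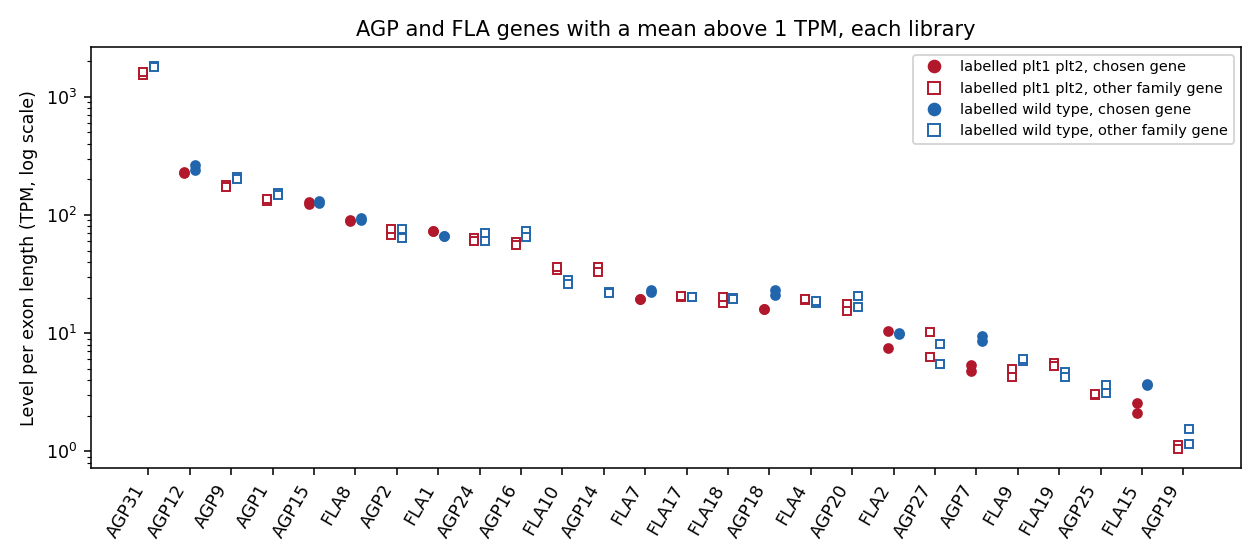
Level per exon length in TPM (y, log scale) of the AGP and FLA genes with a mean above 1 TPM (x, ordered by mean), with 1 point per library; red is labelled plt1 plt2, blue labelled wild type, filled circles are the 10 genes and open squares the other family genes. AGP31 (1691 TPM on average) lies far above AGP12 (241 TPM), AGP9 (190 TPM) and AGP1 (142 TPM).

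The other 41 listed AGP and FLA genes give the setting. Of these, 5 have no row and were not analysed here, 12 have too few reads for the test, and 24 were tested. Of the 24, 4 fell (16.7%, where 5.86% of all tested genes did) and 2 rose (8.33%, where 4.63% did), and 18 did not pass the test. Their median log2 fold change was -0.21, against -0.00053 over all tested genes. The 10 described genes had been taken out of the same families with results known, so these shares describe what was left and are not independent of that choice.

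The 4 that fell were AGPs. AGP31 fell by 0.24 ± 0.04 on the log2 scale (edgeR adjusted p = 0.00530). The classical AGP9 had 181 and 168 CPM in the libraries labelled plt1 plt2, against 213 and 207 CPM in those labelled wild type (-0.27 ± 0.05, edgeR adjusted p = 0.00577). The classical AGP1 had 71.5 and 72.1 CPM in the libraries labelled plt1 plt2, against 85.9 and 82.3 CPM in those labelled wild type (-0.23 ± 0.05, edgeR adjusted p = 0.00908). The AG peptide gene AGP16 had 37.8 and 34.8 CPM in the libraries labelled plt1 plt2, against 47.3 and 41.9 CPM in those labelled wild type (-0.30 ± 0.07, edgeR adjusted p = 0.0180); it overlaps AT2G46320 on the other strand over 228 exon bases. All 4 calls ended without library 1 labelled wild type (edgeR adjusted p = 0.0755 for AGP31, 0.0560 for AGP9, 0.0785 for AGP1 and 0.139 for AGP16), where 0 family genes were called lower and 5 had an unadjusted p below 0.05. The AGP31 call also ended without library 2 labelled wild type (0.0787).

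AGP14 and FLA10 rose. AGP14, an AG peptide gene whose mutants have longer root hairs per the reference annotation, had 10.5 and 9.30 CPM in the libraries labelled plt1 plt2, against 6.62 and 6.47 CPM in those labelled wild type (log2 fold change 0.60 ± 0.10, edgeR adjusted p = 0.00384). It was called in each alternative run, including without each library. The root hair regulator RHD6 was higher in the same libraries, with 13.9 and 13.8 CPM in those labelled plt1 plt2 against 5.97 and 4.78 CPM in those labelled wild type. COBL9, another root hair gene, had at most 5 reads in any library and 0 in library 2 labelled wild type. On the whole epidermis and root hair list, 3 of 4 tested markers fell and RHD6 rose. The part of these markers in the AGP14 result was not tested.

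FLA10, of group C, had 38.2 and 39.4 CPM in the libraries labelled plt1 plt2, against 32.5 and 30.0 CPM in those labelled wild type (0.31 ± 0.06, edgeR adjusted p = 0.00563), and its call ended without library 2 labelled wild type (0.0584). FLA10 and FLA8 were the closest pair compared, with 81.6% of 1281 alignment columns identical, against 52.9% to 57.1% for the other pairs among FLA1, FLA2, FLA8 and FLA10. Their values, 0.31 for FLA10 and -0.09 for FLA8, had opposite signs; the difference between them was not tested.

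Among the most abundant uncalled genes, AGP2 gave -0.03 (edgeR adjusted p = 0.884), AGP24 gave -0.12 (0.406), FLA17 -0.04 and FLA18 -0.09. AGP2 changed sign without library 1 labelled plt1 plt2 or library 1 labelled wild type, and AGP24 without the second of these. FLA5, picked out after its values were seen, had the lowest value of the family, -1.36 ± 0.39, from 13 and 15 reads in the libraries labelled plt1 plt2 and 40 and 31 in those labelled wild type. It was not called (edgeR adjusted p = 0.0537; between 0.0475 and 0.267 over the alternatives). FLA4, also known as SOS5 and named for salt overly sensitive roots, had 20.9 CPM in both libraries labelled plt1 plt2, against 20.3 and 20.9 CPM in those labelled wild type.

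**Figure D4:**
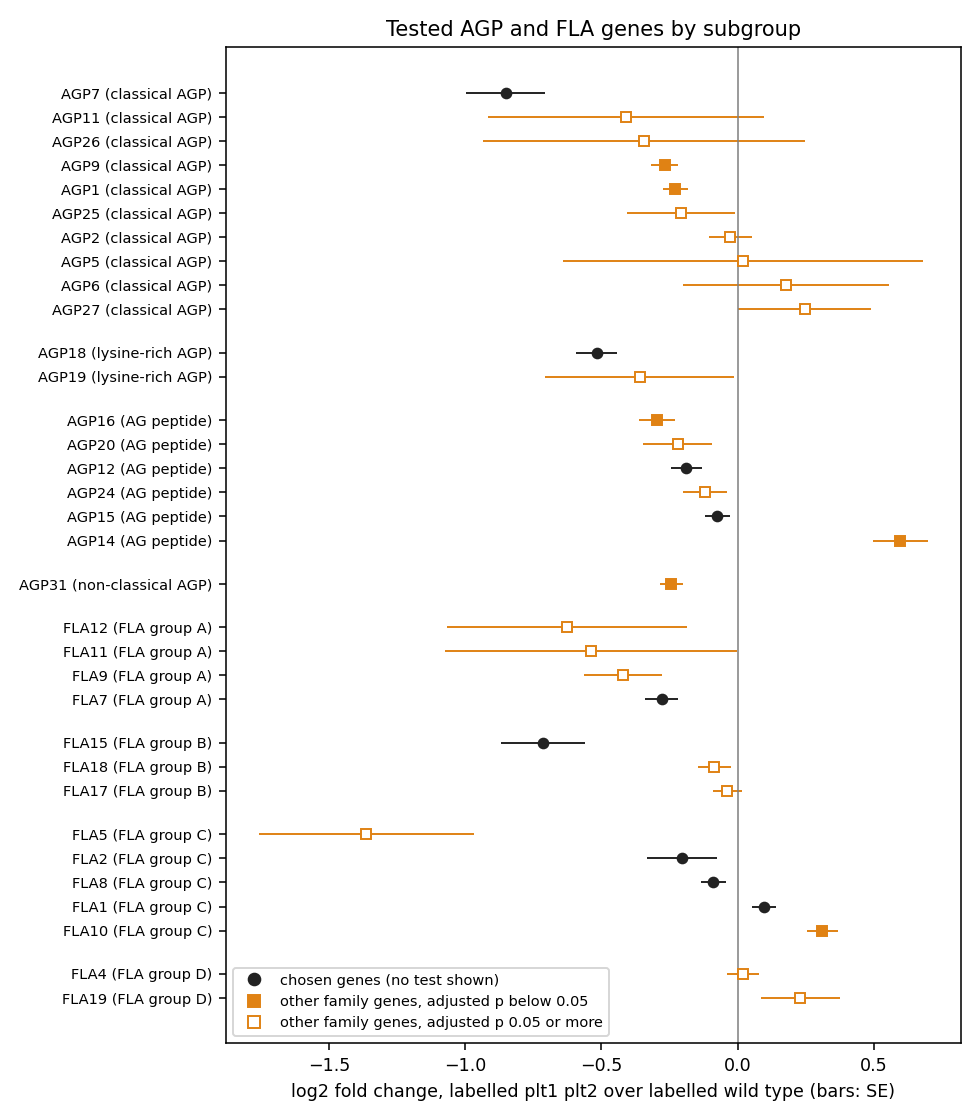
log2 fold change of the libraries labelled plt1 plt2 over those labelled wild type (x, bars are SE) for the 33 tested AGP and FLA genes (y, by subgroup); black circles are the 9 tested genes of the 10, shown without a test, and orange squares the other family genes, filled where the edgeR adjusted p was below 0.05. AGP14 (0.60) and FLA10 (0.31) lie to the right of 0, and AGP7 (-0.85), FLA15 (-0.71) and AGP18 (-0.52) to the left.

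Among enzymes that hydroxylate, glycosylate or anchor these proteins, 1 of 30 tested passed the test, where 10.5% of all tested genes did. Of 33 listed genes 30 were tested, 0 rose and 1 fell by edgeR, and DESeq2 gave the same counts; at an unadjusted p below 0.05, 0 were higher and 3 lower with either tool. The median log2 fold change was 0.01, with a range from -0.65 to 0.26. The enzyme list too was drawn up with earlier results of these data known. RGP2, a UDP-arabinose mutase that makes the furanose form of UDP-arabinose, had 164 and 152 CPM in the libraries labelled plt1 plt2, against 182 and 180 CPM in those labelled wild type (-0.20 ± 0.05, edgeR adjusted p = 0.0277). Its call ended without library 2 labelled plt1 plt2 (0.0902), library 1 labelled wild type (0.133) or library 2 labelled wild type (0.122). RGP1, its partner in the same step, gave -0.09 ± 0.05 (edgeR adjusted p = 0.275). The 5 listed prolyl hydroxylase genes all lay above 0, from 0.01 to 0.10, with P4H1, P4H2 and P4H5 at 0.03, 0.01 and 0.06. The glucuronosyltransferase genes GLCAT14A, GLCAT14B and GLCAT14C gave 0.08, -0.07 and -0.02. None of the genes in these sets was called. GALT2, annotated as a hydroxyproline galactosyltransferase specific for AGPs, had 21.8 and 22.0 CPM in the libraries labelled plt1 plt2 and 21.9 and 21.8 CPM in those labelled wild type.

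**Figure D5:**
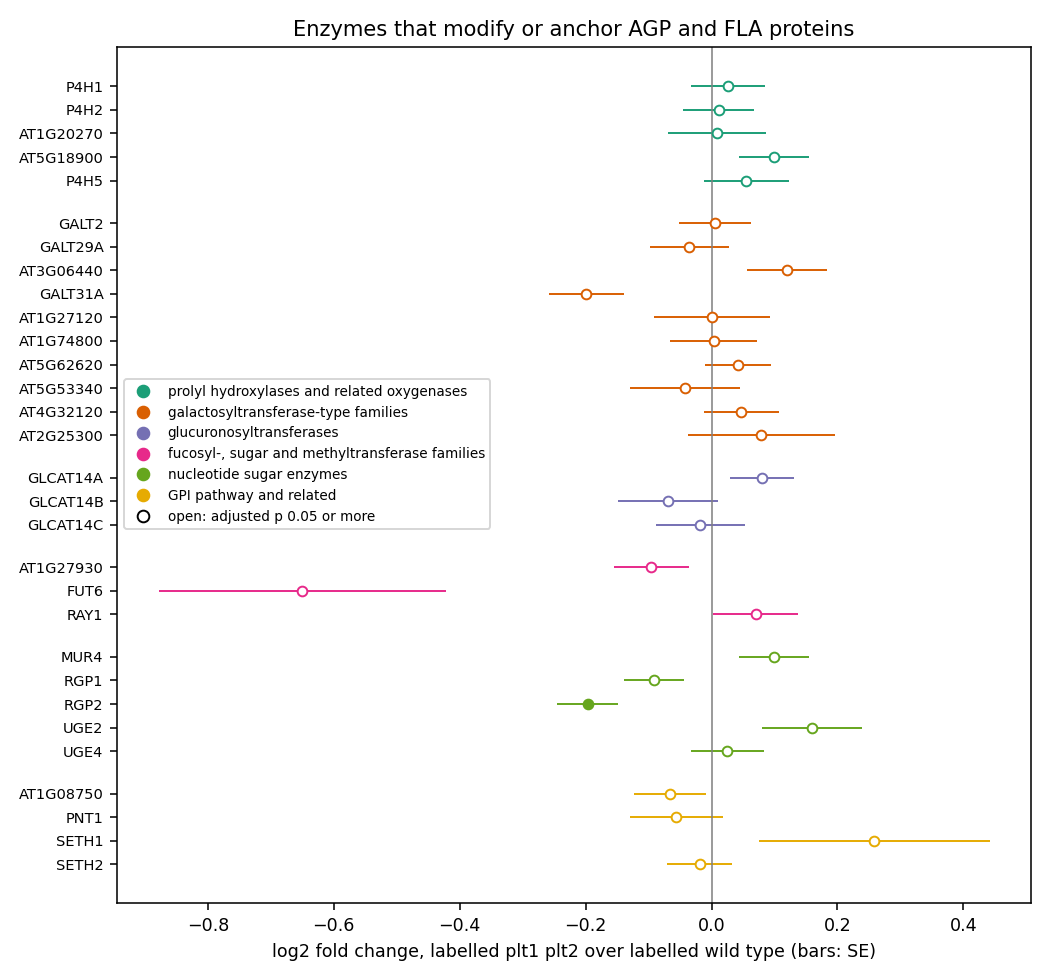
log2 fold change of the libraries labelled plt1 plt2 over those labelled wild type (x, bars are SE) for the 30 tested enzyme genes (y, by step; locus codes where the reference gives no symbol), filled where the edgeR adjusted p was below 0.05. Points run from -0.65 to 0.26, most lie close to 0, and RGP2 (-0.20) is the filled one but not the largest change.

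In these pooled calli, fewer cells of a type and less RNA per cell cannot be told apart. The marker lists were drawn up with earlier results of these data known, so their counts and sums are descriptions only. All 4 root cap markers fell, where 5.86% of all tested genes fell and 4.63% rose, and their summed level was 26.5 and 37.5 CPM in the libraries labelled plt1 plt2 against 62.4 and 57.6 CPM in those labelled wild type. Of 4 phloem markers 3 fell, with sums of 4.73 and 4.61 CPM in the libraries labelled plt1 plt2 against 9.34 and 8.11 CPM in those labelled wild type. The epidermis and root hair list, in which 3 of 4 tested markers fell and RHD6 rose, summed to 864 and 803 CPM in the libraries labelled plt1 plt2 against 1065 and 1000.2 CPM in those labelled wild type. The summed levels of these lists were lower under the plt1 plt2 label, as were the CPM of AGP7, AGP12, AGP15, AGP18, FLA7, FLA8, FLA15 and AGP31. FLA1, AGP14 and FLA10 went the opposite way to these sums. Within the epidermis and root hair list, RHD6 rose, as AGP14 did. Of the 6 callus markers, in contrast, 4 rose and 1 fell. The part of any of these lists in the values of the AGP and FLA genes was not tested.

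The 250 bases before the annotated start of each of the 10 genes were searched on both strands for TGTCTC and TGTCGG, core sequences bound by auxin response factors, for the G-box CACGTG and for the TATA box TATAAA. The letters TGTCTC were found upstream of FLA1 alone, and 10.9% of 27443 upstream regions of that length hold it. TGTCGG was found upstream of FLA15 alone, against 4.16% of all regions. CACGTG was found in 0 of 10, against 6.49% of all regions, and TATAAA in 6 of 10, against 47.3%. TATAAA matches on opposite strands can overlap, as upstream of AGP12 and FLA7. The regions with the auxin-type letters are FLA1 at chr5:22560542-22560791 (minus strand, first base of the match at -233 from the start) and FLA15 at chr3:19417122-19417371 (plus strand, -208, on the opposite strand), with the match in capitals.
FLA1: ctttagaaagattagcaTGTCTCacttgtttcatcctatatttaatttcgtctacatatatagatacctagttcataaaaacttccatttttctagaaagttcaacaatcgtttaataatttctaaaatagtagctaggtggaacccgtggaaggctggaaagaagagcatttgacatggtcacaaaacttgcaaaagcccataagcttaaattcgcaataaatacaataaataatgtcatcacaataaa
FLA15: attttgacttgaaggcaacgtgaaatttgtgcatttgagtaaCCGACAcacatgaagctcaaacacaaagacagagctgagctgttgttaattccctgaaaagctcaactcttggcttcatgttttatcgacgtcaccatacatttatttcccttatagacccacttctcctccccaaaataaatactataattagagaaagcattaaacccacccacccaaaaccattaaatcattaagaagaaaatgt
A match describes letters in the window and is not a shown binding site.

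The genes whose profile over the 4 libraries was nearest to that of AGP7 were looked up among 17096 others by Euclidean distance of centred log2 CPM. The nearest was AT1G11170 (a DUF707 family gene), with 9.41 and 8.39 CPM in the libraries labelled plt1 plt2 and 15.6 and 14.8 CPM in those labelled wild type, at a distance of 0.0391. AT5G43690 (0.0515), RUP1 (0.0546), AT1G09390 (0.0547) and the dehydrin family gene AT1G54410 (0.0608) followed. The likeness rests on 4 libraries and describes those only.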

How the data were processed

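The authors deposited raw read counts per gene for 4 callus libraries, and the columns were matched to samples by title. Trim Galore 0.5.0, STAR 2.7.2b, DESeq2 and build TAIR10 are named per the submitters' processing notes; the counting tool, annotation and strand setting are not given in the sources used here. Counts were fitted on the whole table in R 4.3.3 by the quasi-likelihood test of edgeR 4.0.16 (glmQLFit, glmQLFTest), on genotype alone, after filterByExpr and TMM scaling, with Benjamini-Hochberg adjustment over 19325 genes, and a call at an adjusted p below 0.05. The fit was tested on simulated data. SE is the log2 fold change divided by the square root of F. CPM used TMM-scaled totals, and TPM used the union of exons in RefSeq TAIR10.1, from which all coordinates and sequences come. Copies were searched with BLAST+ 2.17.0. Exact intervals cover counting error only. The named genes are the 10, every other family gene called, the 4 most abundant uncalled, up to 8 called enzymes and PLT1 and PLT2. Other relatives and enzymes are named for comparison, picked after their values were seen. Members and lists were chosen with earlier results of these data known. Alternatives were DESeq2 1.42.0, its size factors, other filters, a replicate block and leaving out each library.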

Additional observations from a re-analysis of the deposited data

How the results depend on the processing

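Over all genes tested, 2027 were called, and leaving out a library in turn gave 1068 to 3026, with 1137 without library 1 labelled wild type and 1068 without library 2 labelled wild type. For the family genes outside the 10, the main counts of 4 lower and 2 higher became 0 to 5 lower and 1 to 3 higher when a library was left out, and the 1 enzyme called lower became 0 to 1, with 0 higher in each; without library 2 labelled plt1 plt2 the enzyme called was FUT6 in place of RGP2. With 1 library left, a label's spread is assumed to be like that of the other. The other alternatives gave 2 higher and 4 or 5 lower family genes. A replicate block, tested because the titles number the libraries, gave 1909 genes and the same counts of family genes outside the 10 and enzymes, and added AGP12 to the members called lower. Same-numbered libraries did not deviate together (r = -0.117 over 17177 genes), so the numbers are not shown to pair them; a crossed block, added after seeing the data, gave 2340 genes, 4 lower and 2 higher family genes. Among the 9 tested members the sign changed for FLA2 alone, in 1 of 10 alternatives (-0.44 to 0.01). AGP7 ranged from -0.96 to -0.75, AGP18 from -0.58 to -0.45, FLA15 from -0.83 to -0.60 and FLA7 from -0.31 to -0.25. The count of members called lower, 4 in the reported fit, was 2 without library 1 labelled wild type (AGP7, AGP18) and 3 without library 2 labelled wild type (AGP7, AGP12, AGP18). It was 5 with no filter, with that block and without library 1 labelled plt1 plt2, each adding AGP12, and 5 without library 2 labelled plt1 plt2, adding FLA2. As for the reported fit, nothing is read from these counts of members, because of how the genes were chosen. Without AGP12, chosen after seeing the data, the ratio of the members' summed levels was 0.935, against 0.919 with it. The order by level per length was the same with the longest transcript. At 2 to 8 reads per library, AGP4 did not pass the filter of the reported fit. The exact interval of its ratio, 0.132 to 1.16, includes equal levels.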
